A study of Homo sapiens with 4 samples.

Results

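The genes described here are those that stood moderately higher in nascent RNA when lymphoma cells met the ligand of CD30: 126 of 22798 genes counted on their own strand. Members were chosen by their RPKM (reads per kilobase of counted sequence, scaled to the library total) in the 2 co-culture libraries: at least 300 counted bases, a mean of at least 0.5 RPKM, and a CD30L+ CHO to CHO ratio from 1.5-fold up to, but not including, 2-fold, with 0.25 RPKM added to each value. Because these values chose the members, they are given below as a description only, and SM-164 against DMSO, measured in libraries that took no part in the choice, is the independent readout.

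The cells were Karpas 299, an established line of anaplastic large cell lymphoma, a T cell cancer that displays CD30. The 4 conditions were profiled by Bru-seq, in which RNA made during a short pulse of bromouridine is pulled down and sequenced: CD30L+ CHO, where the lymphoma cells lay on hamster ovary cells carrying the ligand; CHO, where they lay on hamster cells without it; SM-164, a synthetic mimic of the IAP-binding protein Smac; and DMSO, its solvent. Treatment lasted 3 h, with label present in the last 30 min; the dose of SM-164 and the promoter that drives the ligand are not given in the sources used. Each condition had 1 library, so no difference has a replicate check and every interval covers counting error only.

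CD30 is a receptor of the tumour necrosis factor family that recruits TRAF adaptor proteins and switches on NF-kB transcription factors. The TRAF proteins hold the ubiquitin ligases c-IAP1 and c-IAP2 in a complex that destroys the kinase NIK, and loss of the c-IAP proteins frees NIK to start the non-canonical arm of NF-kB. Smac mimetics make c-IAP proteins degrade themselves. NF-kB factors bind short kB sites in DNA and are known in lymphoid cells for driving genes of cytokine receptors, survival proteins, antigen presentation and their own regulators.

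Letters of a strict kB pattern stood in the promoters of several members, and 4 promoters are shown because their genes had the highest SM-164 ratios among the members with that strict pattern. The windows run from 250 bases before to 50 bases after the RefSeq gene start (GRCh38.p14, 5′ to 3′ on the gene's strand), and capitals mark matches to the strict pattern or to a broader kB consensus, on either strand.
IL4R, chr16:27313724-27314023, plus strand: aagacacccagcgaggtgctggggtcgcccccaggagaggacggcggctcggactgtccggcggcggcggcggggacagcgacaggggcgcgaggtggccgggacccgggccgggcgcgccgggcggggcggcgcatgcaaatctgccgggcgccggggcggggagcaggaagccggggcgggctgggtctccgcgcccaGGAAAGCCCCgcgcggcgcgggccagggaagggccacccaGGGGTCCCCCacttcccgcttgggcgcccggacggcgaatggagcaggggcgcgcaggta
TRAF3, chr14:102777199-102777498, plus strand: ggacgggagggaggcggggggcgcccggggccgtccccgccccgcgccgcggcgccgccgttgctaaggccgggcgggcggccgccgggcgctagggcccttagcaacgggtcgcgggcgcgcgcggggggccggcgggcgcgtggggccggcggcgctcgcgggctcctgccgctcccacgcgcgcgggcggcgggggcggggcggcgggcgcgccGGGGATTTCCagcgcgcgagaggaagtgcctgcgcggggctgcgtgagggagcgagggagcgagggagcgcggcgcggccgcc
TAPBP, chr6:33314029-33314328, minus strand: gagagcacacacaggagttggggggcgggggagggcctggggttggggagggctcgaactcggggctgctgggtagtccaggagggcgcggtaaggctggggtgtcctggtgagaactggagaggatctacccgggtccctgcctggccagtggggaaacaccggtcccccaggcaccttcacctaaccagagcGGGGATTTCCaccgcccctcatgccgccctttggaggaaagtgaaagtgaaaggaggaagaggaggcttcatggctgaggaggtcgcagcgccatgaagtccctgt
SPPL2A, chr15:50765657-50765956, minus strand: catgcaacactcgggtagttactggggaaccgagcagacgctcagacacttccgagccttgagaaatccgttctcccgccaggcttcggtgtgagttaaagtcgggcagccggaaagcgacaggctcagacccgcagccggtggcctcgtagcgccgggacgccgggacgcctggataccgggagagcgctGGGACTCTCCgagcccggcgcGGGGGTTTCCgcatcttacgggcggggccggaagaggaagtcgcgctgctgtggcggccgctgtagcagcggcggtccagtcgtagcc
TRAF3 encodes an adaptor that brings NIK to the c-IAP proteins, TAPBP the peptide-loading factor tapasin, IL4R the interleukin 4 receptor alpha chain, and SPPL2A an intramembrane protease that cleaves tumour necrosis factor. The strict kB pattern, 3 G, then 2 bases of any kind, then TTTCC, begins at position -33 from the start in TRAF3, -56 in TAPBP, -50 in IL4R (on the opposite strand) and -38 in SPPL2A.

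For 4 further members with that pattern, the site is shown with 10 bases on each side, in the same build; capitals here mark the strict pattern alone, not broader kB matches that overlap it.
CCDC3, chr10:13100061-13100090, minus strand: gcccgcgccgGGGAATTTCCcgggccccgc
TICAM1, chr19:4831813-4831842, minus strand: gggcgacccgGGGACTTTCCcggtgctgcg
REL, chr2:60881518-60881547, plus strand: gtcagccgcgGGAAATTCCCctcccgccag
OPTN, chr10:13100061-13100090, plus strand: gcggggcccgGGAAATTCCCcggcgcgggc
CCDC3 and OPTN share 1 stretch of DNA read from opposite strands, since their RefSeq starts face away from each other, so these 4 members hold 3 distinct stretches. The CCDC3 entry counted in hg19 lay 98.4 kb from OPTN, so the RefSeq start shown for CCDC3 is far from the start of the entry whose ratios made it a member. REL encodes the c-Rel subunit of NF-kB, TICAM1 the TRIF adaptor of Toll-like receptors and OPTN a ubiquitin-binding autophagy receptor.

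Of the 126 members, 98 had a promoter in the RefSeq table, 3 of them under a newer symbol. The strict kB pattern, searched on both strands, occurred in 9 of these 98 promoters (9.18%), in 8 of 58 promoters of genes 2-fold or more higher on CD30L+ CHO (13.8%), in 146 of 6203 promoters of all genes tested there (2.35%) and in 1.92% of all 27305 promoters of the table. The broader kB consensus, which took in all 9, occurred in 18 of the 98 (18.4%), against 6.01% of promoters of all genes tested. The interferon-type pattern, GAAA repeated after 2 bases of any kind, occurred in 8 members (8.16%), against 3.05% of tested promoters; those with a kB pattern as well included TAPBP and NTRK2. TGANTCA, the AP-1 site, occurred in 3 members (3.06%), against 4.34% of tested promoters. The 18 members with the kB consensus had a median SM-164 log2 ratio of 0.32, and the 80 members whose window lacked it had a median of 0.29. CCDC3 and OPTN, which share a stretch, each count among the 9 and the 18, and no share without CCDC3 was computed. These are matches of letters, not measured binding.

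In the co-culture experiment 7661 genes were tested, of which the range that defines the members, called the band below, took 1.64%; the 75 genes at 2-fold or more were 0.979%. Over the members, RPKM had a median of 3.53 on CD30L+ CHO and 1.91 on CHO, and of 2.02 with SM-164 and 1.48 with DMSO. A higher value in bulk RNA cannot tell more transcribing cells from more RNA per cell. The members nearest the lower bound were PIK3C2B, GCH1 and LOC100506046 (log2 ratios 0.586, 0.588 and 0.593), with LOC731424, SNHG15 and SEC24A just outside (0.5847, 0.5823 and 0.5820). At the upper bound HLA-DQA1, NTRK2 and ZEB2 (0.993, 0.991 and 0.989) lay just inside, with WDR65, SMAP2 and TAP1 (1.01, 1.02 and 1.02) just outside. Folds, unlike the log2 ratios, are ratios of reads per library total with nothing added, and so can pass 2 for a member. For 124 members the counting interval of the fold lay above 1, against 18.3% of all tested genes, a contrast that the choice of members itself produces. LINC00515 and LOC100506046, short genes with few reads, were the exceptions. In 7 members the CHO value itself was under 0.5 RPKM, so that they entered through their value on CD30L+ CHO.

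Library totals recovered from the deposited columns were 45.5 M reads for CD30L+ CHO, 45.9 M for CHO, 26.2 M for SM-164 and 31.0 M for DMSO. Among markers of the lymphoma line, 5 of 7 reached 0.5 RPKM in every library; ALK, known in this line as part of a fusion with NPM1, was below it in all 4 when counted over the whole gene. Summed RPKM of 5 stromal genes was 0.00746 on CD30L+ CHO, 0.0202 on CHO, 0.129 with SM-164 and 0.177 with DMSO. That of 4 B cell genes was 0.292 to 0.394 in the 4 libraries, and that of 4 epithelial genes 0.299 to 0.508. The 4 myeloid genes summed to 1.31 on CD30L+ CHO, 2.13 on CHO, 1.53 with SM-164 and 1.60 with DMSO, and the 3 NK cell genes to 1.36, 2.60, 3.12 and 3.53 in the same order. CD14 and NCAM1 were below 0.5 RPKM in every library, but CSF1R of the myeloid list and KLRD1 and NKG7 of the NK cell list reached it in every library. Of the lymphoma markers, CD4 was below it on CD30L+ CHO alone, at 0.464. The part of these genes in the results was not tested. Short genes had lower SM-164 ratios than long ones, which is why values with this length trend subtracted are given beside the main counts.

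With SM-164, almost all members stood above DMSO. Of the 126 members, 115 had a mean of at least 0.5 RPKM over SM-164 and DMSO, 112 of them in both libraries and 3 through SM-164 alone. A log2 ratio above 0 was found in 108 of the 115 (93.9%), against 36.7% of all 7881 genes tested in these libraries. Their median was 0.30, with a middle range of 0.19 to 0.46, and the median of all tested genes was -0.04. Over all 126 members, with no minimum on expression, 119 were above 0 and the median was again 0.30. With the length trend subtracted, 113 of 115 were above 0, against 49.8% of all tested genes, and the median was 0.35.

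**Figure D1:**
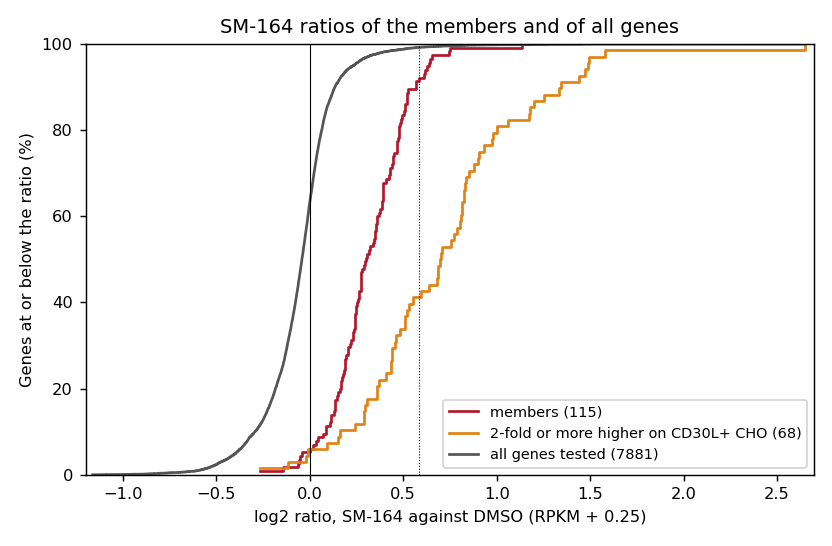
Cumulative percentage of genes (vertical axis) at or below each log2 ratio of SM-164 against DMSO (horizontal axis) for the 115 members tested, the 68 tested genes that were 2-fold or more higher on CD30L+ CHO, and all 7881 genes tested; the solid and dotted vertical lines mark 0 and 1.5-fold. The members lie to the right of all genes, with a median of 0.30 against -0.04, and to the left of the 2-fold group, whose median was 0.70.

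The counting interval of the SM-164 fold lay above 1 in 96 of the 115 members, against 15.7% of all tested genes, and below 1 in 2 members, against 29.4%. It spanned 1 in the other 17. Whether an interval clears 1 also depends on the number of reads, and these shares were not matched for it. Median counted bases were 38195 in the tested members and 24829 in all tested genes, and median DMSO RPKM 1.79 and 1.37. By the log2 ratio, with 0.25 RPKM added, 1.5-fold or more was reached by 9 members, against 0.787% of all tested genes. It was also reached by 2 further members, CD70 and CD82, that were below the expression minimum. IL21R was the 1 tested member to pass 2-fold by this ratio, against 0.190% of tested genes. None was 1.5-fold or more lower, a range that held 1.10% of all tested genes. Folds, with nothing added, lie further from 1 and pass 1.5 in other members too, such as TAPBP at 1.52.

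**Figure D2:**
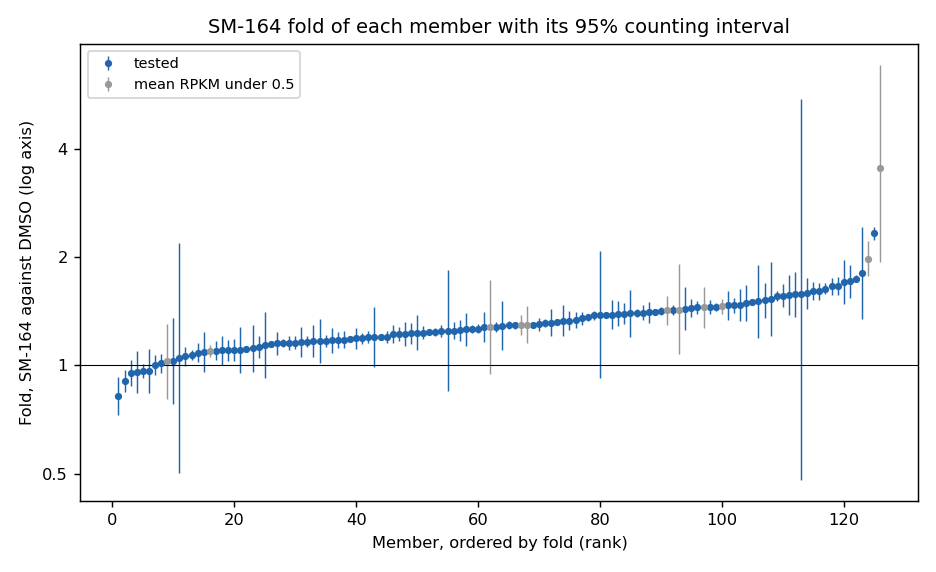
Fold of SM-164 against DMSO (vertical axis, log scale) for each of the 126 members, ordered by fold along the horizontal axis, with the 95% counting interval; blue points were tested and grey points had a mean RPKM under 0.5. Most intervals lie above 1, and the widest belong to members with few reads.

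The SM-164 ratio ran in step with the class of CD30L ratio. Among genes tested in both experiments, the median SM-164 ratio was -0.40 in the 56 genes 2-fold or more lower on CD30L+ CHO, -0.22 in the 313 from 1.5-fold to 2-fold lower, -0.10 in the 1209 from 1.5-fold lower to a log2 ratio of -0.3, and -0.04 in the 3620 from -0.3 to 0. It was 0.00 in the 1552 genes from 0 to 0.3, 0.16 in the 277 from 0.3 up to the members, 0.30 in the members and 0.70 in the 68 genes at 2-fold or more. The share above 0 was 84.5% in the class just under the members, 93.9% in the members and 94.1% in the highest class. What set the highest class apart was the size of the ratio: 40 of its 68 genes reached 1.5-fold, against 9 of 115 members and 6 of 277 in the class just under them. Gene length differed between the classes too. From the lowest class up, median counted bases were 1728, 6247, 13962, 30542, 37849 and 43500, then 38195 in the members and 21108 in the highest class. Class medians with the length trend subtracted were not computed, so the part of gene length in them was not tested. These class differences were not tested either, since each condition had 1 library.

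**Figure D3:**
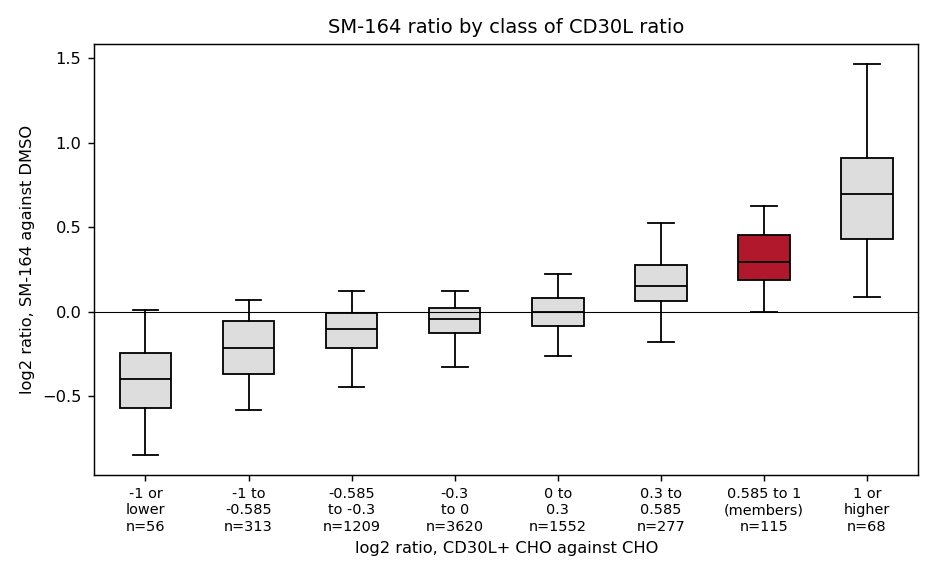
Log2 ratio of SM-164 against DMSO (vertical axis) by class of log2 ratio of CD30L+ CHO against CHO (horizontal axis, with the number of genes); boxes show the quartiles and median, whiskers the 5th and 95th percentiles, and the members are in red. Medians climb from -0.40 in the lowest class to 0.30 in the members and 0.70 in the highest class.

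Over the 115 tested members, Pearson's r between CD30L and SM-164 ratios was 0.25 and Spearman's rho 0.28. Over all 7210 genes tested in both experiments the values were 0.57 and 0.40, with no correction for gene length. These values are a description over genes of the same 4 libraries. The choice of members confined their CD30L ratios to a narrow range, which alone can lower a correlation. Whether the relation was looser inside the band than over all genes therefore cannot be read from these values. Ordered by CD30L ratio, the upper 38 tested members had a median SM-164 ratio of 0.41, the middle 38 one of 0.24 and the lower 39 one of 0.28.

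The members with the highest and next highest SM-164 ratio, IL21R and CXCR4, encode receptors of a cytokine and a chemokine; the list they belong to had a median SM-164 log2 ratio of 0.08 over 24 tested genes. IL21R, the receptor of interleukin 21, had 4.74 RPKM on CD30L+ CHO and 2.54 on CHO, and 5.10 with SM-164 and 2.19 with DMSO. Its SM-164 fold was 2.33 (95% interval 2.23 to 2.43). Its CD30L fold, held within limits by the choice of members, was 1.87 (1.81 to 1.93), so the 2 folds are not compared. IL4R was at 4.62 and 2.90 RPKM on CD30L+ CHO and CHO cells, and at 6.55 and 4.19 RPKM with SM-164 and DMSO, which is 1.56-fold higher with SM-164 (1.51 to 1.61). Both genes lie on chromosome 16 in the same direction, IL4R from 27325251 to 27376099 and IL21R from 27413483 to 27463363 (hg19), 37.4 kb apart. CXCR4, the receptor of the chemokine CXCL12, was at 5.23 RPKM on CD30L+ CHO and 2.58 on CHO, and at 8.73 RPKM with SM-164 and 5.09 with DMSO, 1.72-fold higher with SM-164 (1.54 to 1.91).

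IL2RA, the alpha chain of the interleukin 2 receptor, was the member with the highest RPKM on CD30L+ CHO. It stood at 23.3 RPKM there and 14.7 on CHO, and at 28.9 with SM-164 and 24.3 with DMSO, 1.19-fold higher with SM-164 (1.17 to 1.2). IL6ST, the shared signalling chain gp130, was 1.25-fold higher with SM-164 (1.18 to 1.32), with 1.75 RPKM against 1.4 with DMSO. These 5 were the members among 26 tested genes of the cytokine, chemokine and receptor list, to be read, like the list counts below, against the 1.64% of all tested genes in the band; 4 others were above the band and 16 were within 1.5-fold. Downstream of interleukin receptors, STAT5B, a transcription factor that several of them activate, was 1.19-fold higher with SM-164 (1.15 to 1.23), and PIM2, a survival kinase induced by STAT5, 1.4-fold higher (1.2 to 1.62). They were the 2 members among 23 tested JAK-STAT and SOCS genes.

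**Figure D4:**
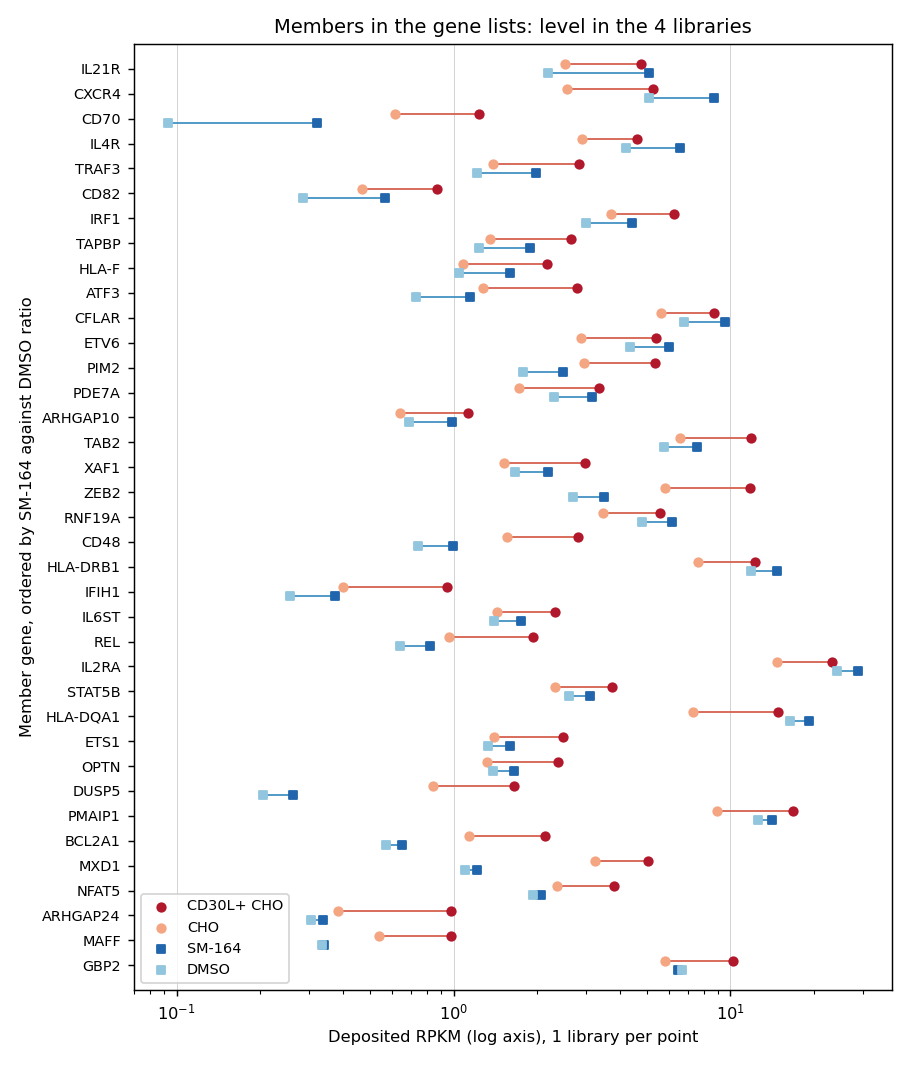
Deposited RPKM (horizontal axis, log scale) in the 4 libraries for 37 of the 38 members that belong to a gene list (rows, highest SM-164 ratio on top); circles joined by red lines are CD30L+ CHO and CHO, squares joined by blue lines are SM-164 and DMSO. The extent of the red lines is set by the choice of members; the blue lines differ, from CD70, at 0.321 with SM-164 and 0.0931 with DMSO, and IL21R, at 5.10 and 2.19, to GBP2, at 6.47 and 6.71.

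TRAF3 and TAB2, both adaptors of TRAF signalling, were higher with SM-164 beyond counting error. TRAF3 had 2.83 RPKM on CD30L+ CHO and 1.39 on CHO, and 1.98 with SM-164 and 1.21 with DMSO. Its folds were 2.04 with CD30L (1.98 to 2.09) and 1.64 with SM-164 (1.58 to 1.70). TAB2, which links ubiquitin chains to the kinase TAK1, had 11.8 RPKM on CD30L+ CHO and 6.56 on CHO, and 7.60 with SM-164 and 5.75 with DMSO, 1.32-fold higher with SM-164 (1.29 to 1.35). These were the 2 members among 31 tested genes of TRAF, IAP and IKK signalling, of which 4 lay above the band, 23 within 1.5-fold and 2 were 1.5-fold or more lower. Most NF-kB subunit and IkB genes lay outside the band: 9 of 17 tested lay above the band, 7 within 1.5-fold, and REL was the 1 member. REL had 1.93 RPKM on CD30L+ CHO and 0.966 on CHO, and 0.820 with SM-164 and 0.643 with DMSO, 1.28-fold higher with SM-164 (1.16 to 1.41).

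HTRA2, in no list, and XAF1, in the interferon list, encode proteins known to bind IAP proteins. HTRA2, a mitochondrial protease that can bind and cleave IAP proteins once released, was at 1.48 RPKM on CD30L+ CHO and 0.798 on CHO, and at 1.12 RPKM with SM-164 and 0.623 with DMSO. Its SM-164 fold was 1.8 (1.35 to 2.42). XAF1, which binds XIAP, was at 2.99 RPKM on CD30L+ CHO and 1.52 on CHO, and at 2.20 RPKM with SM-164 and 1.67 with DMSO, giving a fold of 1.32 (1.21 to 1.43).

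Regulators of cell death on both sides of survival were present. CFLAR, the inhibitor of caspase 8 known as c-FLIP, had 8.71 RPKM on CD30L+ CHO and 5.60 on CHO, and 9.52 with SM-164 and 6.82 with DMSO, 1.4-fold higher with SM-164 (1.36 to 1.43). PMAIP1, the proapoptotic BH3-only protein NOXA, had 16.9 RPKM on CD30L+ CHO and 8.92 on CHO, and 14.1 with SM-164 and 12.5 with DMSO; its SM-164 fold was 1.13 (1.05 to 1.21). For BCL2A1, a prosurvival BCL2 family member, the SM-164 fold of 1.14 had an interval from 0.921 to 1.41, so no difference could be detected at this depth. Among 27 tested genes of death receptors, caspases and the BCL2 family, these were the 3 members, with 2 above the band and 20 within 1.5-fold.

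Antigen presentation genes of both classes lay in the band. TAPBP had 2.65 RPKM on CD30L+ CHO and 1.35 on CHO, and 1.88 with SM-164 and 1.24 with DMSO, 1.52-fold higher with SM-164 (1.36 to 1.70). HLA-F, a nonclassical class I gene, was 1.53-fold higher with SM-164 (1.2 to 1.94). The class II genes HLA-DQA1 and HLA-DRB1 had 14.8 and 12.3 RPKM on CD30L+ CHO, 7.31 and 7.64 RPKM on CHO, 19.2 and 14.7 RPKM with SM-164, and 16.4 and 11.9 RPKM with DMSO. Their SM-164 folds were 1.18 (1.12 to 1.24) and 1.23 (1.18 to 1.29). The list had 5 members among 30 tested genes, of which 1 lay above the band and 23 within 1.5-fold. HLA genes have near-identical relatives, so reads may be split or lost between them. Outside the naming rule, and chosen after their values were seen, HLA-DQB1 and RFX5, a transcription factor of class II promoters, were also members, with SM-164 log2 ratios of 0.23 and 0.13.

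Innate sensors and interferon genes varied in their SM-164 ratio. IRF1, a transcription factor of the interferon response, was at 6.25 RPKM on CD30L+ CHO and 3.70 on CHO, and at 4.41 RPKM with SM-164 and 3.00 with DMSO, 1.47-fold higher with SM-164 (1.34 to 1.61). NOD2, a cytosolic sensor of bacterial cell wall fragments, was at 4.01 RPKM on CD30L+ CHO and 2.42 on CHO, and at 3.23 RPKM with SM-164 and 2.01 with DMSO, which is 1.61-fold higher with SM-164 (1.52 to 1.70). GBP2, a guanylate-binding protein, was higher with CD30L but not beyond counting error with SM-164: 10.2 RPKM on CD30L+ CHO and 5.79 on CHO, but 6.47 with SM-164 and 6.71 with DMSO, giving a fold of 0.965 (0.920 to 1.01). IFIH1, the RNA sensor MDA5, at 0.374 RPKM with SM-164 and 0.257 with DMSO, was below the expression minimum there, with a fold of 1.45 (1.27 to 1.66). Of 35 tested genes in the interferon list, 4 were members, 2 lay above the band and 29 were within 1.5-fold.

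The members among transcription factors of the lymphoid lineage had SM-164 log2 ratios from 0.22 to 0.45. Over the 41 genes of that list tested with SM-164 the median was 0.13, and 3 others were 1.5-fold or more higher. ETV6, a repressor of the ETS family, had 5.37 RPKM on CD30L+ CHO and 2.89 on CHO, and 6.0 with SM-164 and 4.34 with DMSO, which is 1.38-fold higher with SM-164 (1.36 to 1.4). ETS1, an activator of the same family in T cells, was 1.2-fold higher with SM-164 (1.15 to 1.24). ZEB2, a zinc finger repressor, had 11.8 RPKM on CD30L+ CHO and 5.82 on CHO, and 3.49 with SM-164 and 2.71 with DMSO, so that its level differed far more between the experiments than with SM-164, where it was 1.29-fold higher (1.26 to 1.33). They were the 3 members among 41 tested lineage factors, with 2 above the band.

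The AP-1, immediate-early and MYC network list gave 4 members of 29 tested, with 4 above the band. ATF3, a stress-induced bZIP factor, had 2.78 RPKM on CD30L+ CHO and 1.28 on CHO, and 1.14 with SM-164 and 0.731 with DMSO, 1.56-fold higher with SM-164 (1.45 to 1.68). MXD1, an antagonist of MYC, was at 5.02 RPKM on CD30L+ CHO and 3.24 on CHO, and at 1.21 RPKM with SM-164 and 1.10 with DMSO, giving a fold of 1.10 (1.00 to 1.21). DUSP5, a phosphatase of ERK kinases, and the small MAF factor MAFF were under the expression minimum with SM-164 and DMSO, and their intervals, 0.945 to 1.73 and 0.806 to 1.31, spanned 1, too wide to give a direction.

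Surface and costimulation genes included CD48, a SLAM family ligand, and CD82, a tetraspanin. CD48 had 2.82 RPKM on CD30L+ CHO and 1.56 on CHO, and 0.994 with SM-164 and 0.746 with DMSO, 1.33-fold higher with SM-164 (1.21 to 1.47). CD82 was at 0.870 RPKM on CD30L+ CHO and 0.468 on CHO, and at 0.568 RPKM with SM-164 and 0.286 with DMSO, which is 1.98-fold higher with SM-164 (1.77 to 2.23). CD70, the ligand of CD27, was low in the drug experiment: 1.24 RPKM on CD30L+ CHO and 0.615 on CHO, but 0.321 with SM-164 and 0.0931 with DMSO, giving a fold of 3.55 with a wide interval from 1.94 to 6.86. NFAT5, an osmotic stress factor kept in the same list as CD48 and CD82, was 1.07-fold higher with SM-164 (1.04 to 1.10). The list held 30 tested genes, 3 of them members and 4 above the band; CD70 was the 1 member among 6 tested TNF superfamily genes.

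The GTPase, G protein and lipid signalling list had 3 members among 45 tested genes, with 3 above the band. PDE7A, a phosphodiesterase that degrades cyclic AMP, was 1.38-fold higher with SM-164 (1.34 to 1.42), and ARHGAP10, a GTPase-activating protein, 1.43-fold higher (1.38 to 1.47). ARHGAP24, of the same kind, was 1.10-fold higher (1.05 to 1.14), at 0.336 RPKM against 0.306. RNF19A, a ubiquitin ligase, was the 1 member of 41 tested in its list, 1.28-fold higher with SM-164 (1.24 to 1.32), and OPTN the 1 of 37 in the autophagy and oxidative stress list, 1.19-fold higher (1.11 to 1.27). The list of MAPK and stress kinases had 0 members among 50 tested genes and that of p53 targets 0 among 22; with 1.64% of all tested genes in the band, lists of these sizes would hold few or none, and PMAIP1, also a known p53 target, was kept in another list.

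In all, 38 members belonged to a list and 88 to none. Among those in no list, ATP2C1, a calcium and manganese pump of the Golgi, had 4.72 RPKM on CD30L+ CHO and 2.97 on CHO, and 4.26 with SM-164 and 2.44 with DMSO. Its SM-164 fold was 1.74 (1.70 to 1.78), and its CD30L fold, held within limits by the choice of members, was 1.59 (1.56 to 1.62). DAPP1, a phosphoinositide-binding adaptor of lymphocytes, was at 2.56 RPKM on CD30L+ CHO and 1.48 on CHO, and at 2.19 RPKM with SM-164 and 1.32 with DMSO, which is 1.66-fold higher with SM-164 (1.57 to 1.76). The others among the 15 highest SM-164 ratios were C21orf91-OT1 (0.64), the pseudogene CMAHP (0.58), IQCG (0.57), SEC11C, a subunit of the signal peptidase (0.57), and MB21D2 (0.53). LOC646329 and CMAHP were at 21.1 and 13.3 RPKM on CD30L+ CHO and at 13.3 and 7.34 RPKM on CHO. Pseudogenes and small RNAs such as RPL21P44 and SCARNA7 can have close copies, and their counts are uncertain for that reason.

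The 61 members outside the naming rule had SM-164 log2 ratios from 0.07 to 0.52, a middle range fixed in part by the rule, which names the highest and lowest. The following were chosen from them after their values were seen. ELL2, an elongation factor of RNA polymerase II, had 10.2 RPKM on CD30L+ CHO and 6.08 on CHO, and 6.64 with SM-164 and 4.56 with DMSO, 1.46-fold higher with SM-164 (1.42 to 1.49). ST8SIA4, a sialyltransferase that builds polysialic acid, had 5.92 RPKM on CD30L+ CHO and 2.93 on CHO, and 5.61 with SM-164 and 3.96 with DMSO, 1.42-fold higher with SM-164 (1.38 to 1.45). HUWE1, a large ubiquitin ligase, stood at 8.73 RPKM on CD30L+ CHO and 4.45 on CHO, and at 6.84 with SM-164 and 4.84 with DMSO, 1.41-fold higher with SM-164 (1.39 to 1.44). The intervals of these 3 with SM-164 all lay above 1. IL23R, a further cytokine receptor, had 6.12 RPKM on CD30L+ CHO and 3.87 on CHO, and 6.82 with SM-164 and 5.27 with DMSO, 1.29-fold higher with SM-164 (1.27 to 1.32). TNFAIP8, a protein named for its induction by tumour necrosis factor, was 1.31-fold higher with SM-164 (1.28 to 1.34), and LYN, a SRC family kinase, 1.15-fold higher (1.12 to 1.19).

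At the lower end, 10 tested members had SM-164 log2 ratios of 0.04 or less. VIM, the intermediate filament vimentin, had 10.4 RPKM on CD30L+ CHO and 6.37 on CHO, but 7.67 with SM-164 and 7.57 with DMSO, giving a fold of 1.01 (0.952 to 1.08). SRGN, the granule proteoglycan serglycin, had 5.94 RPKM on CD30L+ CHO and 3.45 on CHO, but 3.99 with SM-164 and 4.00 with DMSO, giving a fold of 1.00 (0.938 to 1.07). LCP1, the actin-bundling protein L-plastin, was outside these 10: it was at 19.2 RPKM on CD30L+ CHO and 12.3 on CHO, and at 18.5 RPKM with SM-164 and 16.6 with DMSO, 1.11-fold higher with SM-164 (1.09 to 1.13). CDC42SE1, a small effector of CDC42, was 1.08-fold higher with SM-164 (1.02 to 1.15).

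The 2 members lower with SM-164 beyond counting error were C2orf66 and ZBED2. C2orf66 was at 9.26 RPKM on CD30L+ CHO and 5.16 on CHO, but at 2.89 RPKM with SM-164 and 3.52 with DMSO, giving a fold of 0.822 (0.726 to 0.929). ZBED2, a zinc finger factor, was at 5.19 RPKM on CD30L+ CHO and 3.05 on CHO, but at 21.8 RPKM with SM-164 and 24.1 with DMSO, giving a fold of 0.906 (0.844 to 0.972). For PIGA, an enzyme of glycolipid anchor synthesis, RBM44, CREB3, SCARNA7 and LOC100506046 the intervals spanned 1, as they did for GBP2, VIM and SRGN.

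Gene length differed between the members and the tested genes. The median of counted bases was 42204 over the members and 27212 over all genes tested in co-culture. The longest members were KIAA1217 with 844079 counted bases, ARHGAP24 with 527474 and MAML2, a coactivator of Notch, with 364905; their SM-164 log2 ratios were 0.16, 0.08 and 0.24. Over the 115 tested members, Pearson's r between the SM-164 ratio and log2 of counted bases was 0.20 and Spearman's rho 0.18, as a description over genes of 2 libraries. SCARNA7 with 330, LINC00515 with 450 and LOC100506046 with 694 were the shortest. LINC00515 had an SM-164 fold of 1.58 with an interval from 0.480 to 5.52, too wide to give a direction.

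**Figure D5:**
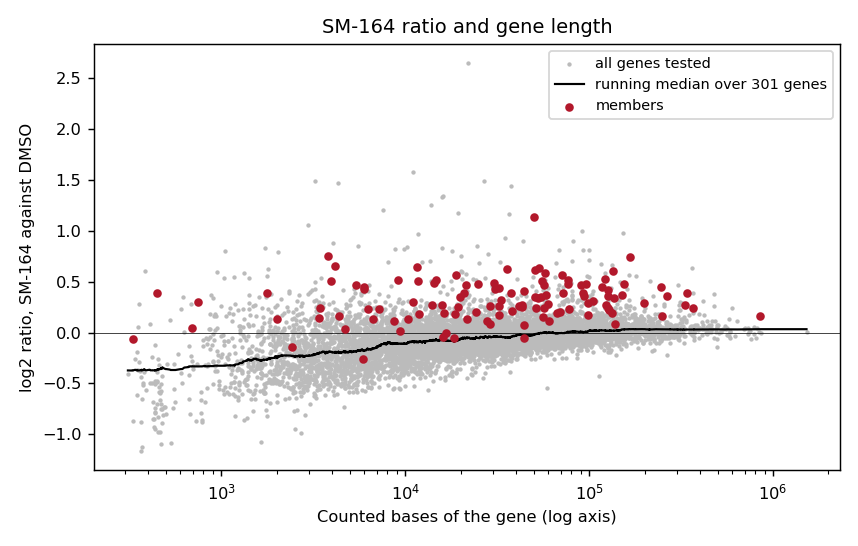
Log2 ratio of SM-164 against DMSO (vertical axis) by counted bases of the gene (horizontal axis, log scale) for all 7881 genes tested (grey) and the 115 tested members (red), with a running median along gene length (black line). The running median lies below 0 for short genes and slightly above 0 for long ones, and 113 of the 115 members lie above it.

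Some members shared a locus and are not independent of one another. FLJ10038 overlapped GABPB1, MGC12916 overlapped HS3ST3B1, SLED1 overlapped ACSL1, and C21orf91-OT1 adjoined C21orf91, each pair on the same strand. With the 1 longer entry of each pair kept, 104 of 111 members were above 0 with SM-164 and the median was 0.30. Next to genes above the band on the same strand lay ATF3, 3.7 kb from FAM71A, NOD2, 9.0 kb from CYLD, and GBP2, 42.3 kb from GBP1. FAM71A, CYLD and GBP1 had CD30L log2 ratios of 1.15, 1.07 and 1.09 and SM-164 ratios of -0.28, 0.44 and 0.15. Chromosome 10 held 10 members, 7.94% of them, and 3.35% of the genes tested. It did not stand alone: chromosome 4 held 7.14% of members and 3.54% of tested genes, and chromosome 21 held 2.38% and 0.888%. Others held less than their share, such as chromosome 7 with 1.59% and 5.2%. These differences were not tested.

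Between the 2 control libraries, CHO against DMSO, the members had a median log2 ratio of 0.10 over 117 tested, against 0.06 over all 8081 genes tested. The CHO library took part in the choice of members, and co-culture and experiment cannot be told apart in this pair. Whether RNA of the hamster cells was counted as human in either co-culture library was not tested. A ratio of 1 or more was found in 5 members, against 0.879% of tested genes: MXD1 (1.37), DUSP5 (1.27), LINC00515 (1.14), ZEB2 (1.04) and, named after its value was seen, ANXA5 (1.68), the phospholipid-binding protein annexin A5. A ratio of -1 or less was found in 3, ZBED2 (-2.88), SCARNA7 (-2.52) and HLA-DQA1 (-1.14), against 4.52% of tested genes. By this ratio, with 0.25 RPKM added, the control levels differed by 2-fold or more between the experiments in 8 of the 117 members.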

How the data were processed

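Nascent RNA was measured by Bru-seq in 4 libraries, 1 for each condition. Per the submitters' processing notes, bedtools 2.16.2, TopHat 1.4.1, Bowtie 0.12.8 and CASAVA 1.8.2 were used, on build hg19. Which gene annotation served was not given in the sources used here. The authors deposited an estimated count per gene over exons and introns together, so these cannot be told apart, a signal per counted base, and an RPKM scaled by 1 total per library. Of the estimated counts above 0, 60.6% to 70.8% lay within 0.001 of a whole number.

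Ratios were computed from the deposited RPKM with 0.25 added, which understates differences of low genes. A repeated symbol kept the entry with most counted bases. Folds are ratios of rounded estimated counts per library total, with exact conditional (Clopper-Pearson) 95% intervals; without molecular identifiers, PCR copies of 1 molecule count more than once, so the intervals cover counting error only. With 1 library per condition no test between conditions was possible and no p-value was computed. Counts of members are given with the share of all tested genes in the same comparison, once per comparison.

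The members, the 16 gene lists and the settings were chosen with earlier results of these data known. Genes were named by rule: the 15 highest and 10 lowest SM-164 ratios among tested members, the 10 highest mean RPKM in co-culture, up to 6 members per list, the 3 on each side of either bound, the 3 longest and shortest, and up to 6 beside a gene above the band. Promoters shown are those with the strict kB pattern, whatever the naming rule; they came from RefSeq (GRCh38.p14). TMM factors came from edgeR 4.0.16 in R 4.3.3; other steps used matplotlib 3.10.9, scipy 1.17.1, pandas 2.3.3, numpy 2.4.6 and Python 3.11.15. Known changes placed in simulated counts served to check the scripts. Alternatives were other pseudocounts, expression and length minimums, scalings, a length correction and other choices of members. The values of 1 member and 1 kB site are not reported here.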

Additional observations from a re-analysis of the deposited data

Results flagged for a closer look

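The antisense feature of CD48 was singled out as signal outside the sense genes described above: it had 0.798 RPKM on CD30L+ CHO and 0.317 on CHO, and 0.0796 with SM-164 and 0.0800 with DMSO. The CD30L fold was 2.52 (95% counting interval 2.27 to 2.81). Of 124 antisense features of members, 5 passed the length and expression minimums, and that of CD48 was the 1 at 1.5-fold or more higher. The share over all antisense features is not given here, so this count cannot be read against a background. The antisense feature of CMTM6 went the other way, at 0.340 RPKM on CD30L+ CHO and 0.815 on CHO.
The protocol gives strand-specific libraries for some samples without naming them here. On its own strand CD48 was at 2.82 RPKM on CD30L+ CHO, 1.56 on CHO, 0.994 with SM-164 and 0.746 with DMSO, so the 2 strands were counted apart in each library. How far reads of 1 strand were assigned to the other was not tested.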

How the results depend on the processing

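Of 96 recomputed values, 80 kept to within the limits set for them and 16 moved. A count kept if it was within 1.5-fold of the main count, and a median if it lay in the 95% order-statistic interval of the main median. A count could therefore also move because an alternative tested more or fewer members. Change of direction was checked for the SM-164 median only, which stayed above 0 in every alternative. The number of members depended on scaling and pseudocount: a pseudocount of 1 gave 97 members, 65 of them among the 126, TMM, which shifted the CD30L ratios by 0.20, gave 236 (89 shared), the median of all genes set to 0 gave 194 (109 shared), and the length trend subtracted gave 195 (105 shared). With a pseudocount of 1, the SM-164 median was 0.22, with 3 members at 1.5-fold and 0 at 2-fold; with the length trend subtracted, 20 members reached 1.5-fold. The members chosen under TMM had a median of 0.24, with 199 of 219 above 0, 167 higher beyond counting error and 0 at 2-fold. Those chosen with the length trend subtracted had a median of 0.25 and 1 member at 1.5-fold or more lower. In the 58 members with the most SM-164 and DMSO reads, 57 of 58 were above 0 and 56 were higher beyond counting error. The CHO against DMSO median was 0.01 under TMM. The 2 alternatives added after seeing the data, 1 entry per overlapping pair and leaving out 16 HLA genes, pseudogenes and noncoding RNAs, gave SM-164 medians of 0.30 and 0.29. The cause of these movements was not tested. No paired analysis was possible because each condition has 1 library. Depth gave wide intervals in members with few reads, such as LINC00515.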
